A study of Mus musculus with 6 samples.

Results

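The miR-10 and miR-196 miRNAs are encoded inside the Hox gene clusters, the chromosomal arrays of transcription factor genes that set position along the body axis. They were taken from the deposited tables by name, both arms of each hairpin, which gave 9 rows of the 1836 miRNAs and 2334 small RNAs listed: mmu-miR-10a-5p, mmu-miR-10a-3p, mmu-miR-10b-5p, mmu-miR-10b-3p, mmu-miR-196a-5p, mmu-miR-196a-1-3p, mmu-miR-196a-2-3p, mmu-miR-196b-5p and mmu-miR-196b-3p. The prefix, which stands for mouse, is left off from here on. The group was selected on the comparison of lasered and control eyes, in which both miR-10a arms were already known to have passed the test. All values of that comparison are therefore given as a description, without p-values.

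Small RNAs had been sequenced from the outer coats of the eye, the retinal pigment epithelium (RPE) with choroid and sclera, of male mice aged 7 to 8 weeks. In the choroidal neovascularization (CNV) group each eye had received 25 spots of a 532 nm laser (100 mW, 0.1 s, 50 µm), an injury after which vessels grow from the choroid, and eyes were taken 7 days later. Controls were mice of the same age without laser. Both groups had 3 libraries, and 4 eyes were pooled for every library. The labels do not say whether different pools came from different mice, so SD and SE rest on the spread between pools, part of which may be technical.

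A miRNA is cut from a hairpin RNA as a pair of strands, the 5p and the 3p arm. The more abundant arm guides the silencing complex to messenger RNAs that pair with its seed, bases 2 to 8. The miR-10 hairpins lie near the paralogous group 4 Hox genes and miR-196 near the more posterior ones, and both families are known to repress Hox transcripts, with miR-196 able to direct cleavage of Hoxb8 messenger RNA. In zebrafish miR-10 promotes vessel sprouting by repressing the VEGF receptor gene flt1, and in arterial endothelium miR-10a is known to restrain inflammatory NF-kB signalling. Hox genes are not expressed in the forebrain territory that gives rise to the retina and RPE.

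RefSeq mature sequences, on build GRCm38.p6, were found for all 9 rows. The 4 guide arms are shown first because a single base separates the members of each pair, which decides whether reads can be told apart. They are written 5′ to 3′ with the seed in capitals.
miR-10a-5p: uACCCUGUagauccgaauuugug
miR-10b-5p: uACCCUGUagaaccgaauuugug
miR-196a-5p: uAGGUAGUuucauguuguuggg
miR-196b-5p: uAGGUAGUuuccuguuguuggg
Counted from 1 at the 5′ end, miR-10a-5p and miR-10b-5p differed by U12A and were identical at the other 22 of 23 positions. The arms miR-196a-5p and miR-196b-5p differed by A12C and were identical at 21 of 22. Both differences lie outside the seed, so each pair shares its seed, ACCCUGU for miR-10 and AGGUAGU for miR-196. No other mature mouse miRNA of the 1679 in the RefSeq table had either seed at bases 2 to 8. The 7 letters of the miR-196 seed also occurred at bases 3 to 9 of 9 miRNAs, 8 of which were let-7 miRNAs or miR-98-5p, the regulators of differentiation with the shifted seed GAGGUAG.

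The opposite arms of the miR-10 hairpins differed more, and they are shown because the rare arm of miR-10a had the largest difference of the group.
miR-10a-3p: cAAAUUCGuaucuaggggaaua
miR-10b-3p: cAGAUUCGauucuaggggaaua
They differed at 3 of 22 positions (A3G, U9A and A10U), the first of them inside the seed. Within the group, no row had the same counts in all 6 libraries as another, and none of the miR-10 arms matched a row outside it. The mismatches that the authors' alignment tolerated are not stated in the labels or files used here, so an exchange of reads between miR-10a-5p and miR-10b-5p was not tested.

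The hairpins place the arms in the genome. The Mir10a hairpin lies on chromosome 11 at 96317165 to 96317274 on the plus strand, between Hoxb5 and Hoxb4 and outside both, with 993 bp to the start of Hoxb4. With the mature arms in capitals it reads
Mir10a: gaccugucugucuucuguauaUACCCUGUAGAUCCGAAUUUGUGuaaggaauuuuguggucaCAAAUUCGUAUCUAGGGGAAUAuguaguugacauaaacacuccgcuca
The Mir10b hairpin lies on chromosome 2 at 74726070 to 74726137 on the plus strand, in introns of the annotated Hoxd3 and Hoxd4 genes.
Mir10b: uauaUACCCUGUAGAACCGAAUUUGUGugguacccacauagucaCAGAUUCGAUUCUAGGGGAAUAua
The arm miR-196a-5p has 2 genes with the same mature sequence. Mir196a-1 lies on chromosome 11 at 96265164 to 96265265, in the same Hoxb cluster as Mir10a and 6192 bp from Hoxb9, and Mir196a-2 on chromosome 15 at 102973350 to 102973434, in an intron of the annotated Hoxc5 gene between Hoxc10 and Hoxc9. Mir196b is read from the minus strand of chromosome 6, from 52230081 to 52230165, and overlaps an exon of Hoxa9 as annotated. Gene models are from GENCODE M21.

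Library totals ran from 5057142 to 12839386 counts, with the highest in control replicate 2. Levels are counts per 1000000 (CPM) relative to library totals scaled by the trimmed mean of M-values (TMM). Log2 fold changes are CNV over control from edgeR's quasi-likelihood model of the 997 small RNAs that passed a filter on low counts, 541 of them miRNAs. Their SE is the log2 fold change, without its sign, over the square root of the F statistic of the test. The model shares information on spread among small RNAs, so the SE is not the spread of a single miRNA alone. When libraries were scaled by their total counts alone, the median over the miRNAs moved from 0.01 to -0.14. RPE miRNAs (both arms of miR-204 and miR-211) were present in all libraries, at a sum of 6841 to 7042 CPM in control and 4573 to 6546 CPM in CNV. The tissue also held 3 photoreceptor miRNAs, miR-182-5p among them, at a summed 24736 to 75779 CPM.

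Of the 9 miR-10 and miR-196 rows, 5 passed the filter: the 4 miR-10 arms (miR-10a-3p only through its CNV libraries) and miR-196b-5p. The threshold of an adjusted p of 0.05 was passed by 2 of these 5, both arms of miR-10a and both higher in CNV, where 0.301% of all tested small RNAs and 0.555% of the tested miRNAs passed. Those shares stand for 3 miRNAs, the 2 miR-10a arms and miR-21a-5p. Both arms were also called by DESeq2, which called 4.62% of the small RNAs it tested. This call had helped to choose the miRNAs, so nothing is read from the count. In TMM-scaled CPM all CNV libraries lay above all control libraries for 3 of the 5, the miR-10a arms and miR-10b-5p, against 11.4% of all tested small RNAs and 12.8% of the tested miRNAs. Under total-count scaling that was so for 2 of the 5, since miR-10b-5p overlapped.

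The guide arm miR-10a-5p stood at 232, 193 and 309 CPM in control replicates 1 to 3 and at 738, 821 and 530 CPM in CNV replicates 1 to 3. The lowest CNV library was above the highest control library. The counts behind them were 1347 to 2687 in the control libraries and 3084 to 4123 in the CNV libraries. The group means were 245 ± 59.1 and 696 ± 150 CPM (SD, n = 3), and the fold change fitted by edgeR was 2.84 (log2 1.51, SE 0.23). Ranked by count among all miRNAs of a library, miR-10a-5p held place 128 to 157 in the control libraries and place 84 to 98 in the CNV libraries.

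The opposite arm miR-10a-3p, the strand of the pair that is mostly degraded, stood at 1.90, 1.51 and 1.84 CPM in control replicates 1 to 3. In CNV replicates 1 to 3 it stood at 7.00, 10.35 and 6.88 CPM. Every CNV library was above every control library, with 9 to 21 counts in the controls and 36 to 52 in CNV. The means were 1.75 ± 0.209 and 8.08 ± 1.97 CPM (SD, n = 3), and the fold change fitted by edgeR was 4.69 (log2 2.23, SE 0.29). By log2 fold change miR-10a-3p was in place 1 and miR-10a-5p in place 7 of the 997 small RNAs. The 3p arm passed the filter only through its CNV libraries, where it was higher, so its place is a description. Both arms were highest in CNV replicate 2 and lowest, among the controls, in control replicate 2.

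The paralogue miR-10b-5p, with the same seed, was the most abundant of the group and the steadiest. It stood at 614, 851 and 747 CPM in control replicates 1 to 3 and at 960, 887 and 855 CPM in CNV replicates 1 to 3. The gap between the highest control and the lowest CNV library was small, and it closed under total-count scaling, where control replicate 2 reached 922 CPM and CNV replicate 2 838 CPM. The means were 737 ± 119 and 901 ± 53.6 CPM (SD, n = 3), with a log2 fold change of 0.29 (SE 0.17) that did not pass the test. Its opposite arm miR-10b-3p stood at 2.24, 2.95 and 2.65 CPM in control replicates 1 to 3 and 3.89, 2.59 and 3.78 CPM in CNV replicates 1 to 3, so that the groups overlapped (log2 0.37, SE 0.29). That arm rested on 13 to 41 counts per library.

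**Figure D1:**
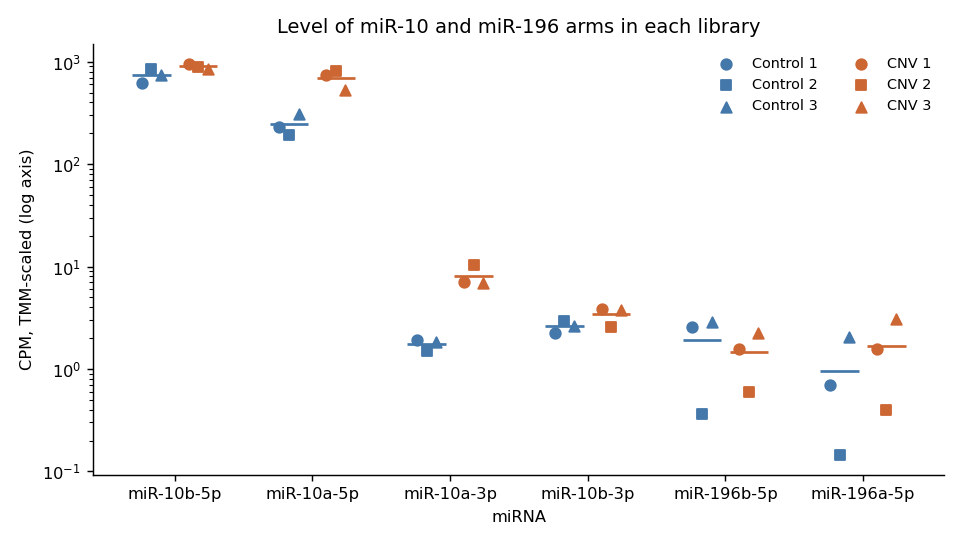
Level of the 4 miR-10 arms and 2 miR-196 guide arms in CPM with TMM-scaled totals, on a log axis, for each of the 3 control and 3 CNV libraries, with a line at each group mean. The 3 CNV libraries of miR-10a-5p sit between 530 and 821 CPM and the controls between 193 and 309, while replicate 2 of both groups is lowest for both miR-196 arms.

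Because miR-10a-5p and miR-10b-5p were counted in the same library, their ratio does not depend on the scaling. The share of miR-10a-5p in the summed counts of both was 27.5%, 18.5% and 29.3% in control replicates 1 to 3, with exact 95% binomial intervals of 26.2 to 28.7%, 17.9 to 19.1% and 28.0 to 30.5%. In CNV replicates 1 to 3 it was 43.4%, 48.1% and 38.3%, with intervals of 42.4 to 44.5%, 47.0 to 49.1% and 37.2 to 39.3%. These intervals cover counting error only, since reads without molecular identifiers are not independent molecules. Every CNV share was above every control share. The intervals of control replicates 1 and 3 overlapped, while that of control replicate 2 lay below both and those of the 3 CNV libraries lay apart from each other. The mean share was 25.1 ± 5.77% in control and 43.3 ± 4.90% in CNV (SD, n = 3), 18.2 percentage points apart. In all 6 libraries miR-10b-5p remained the more abundant of the pair, with 0.925 counts of miR-10a-5p to each count of miR-10b-5p at the most, in CNV replicate 2.

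The opposite arms were compared in the same way. Of the miR-10a-3p and miR-10b-3p counts together, miR-10a-3p made up 45.8%, 33.9% and 40.9% in control replicates 1 to 3 and 64.3%, 80.0% and 64.5% in CNV replicates 1 to 3. So miR-10b-3p had more counts in each control library and miR-10a-3p in each CNV library. The exact interval reached 50% in control replicates 1 and 3 (25.6 to 67.2% and 20.7 to 63.6%) and stayed below it in control replicate 2 (22.3 to 47.0%). In the CNV libraries the intervals were 50.4 to 76.6%, 68.2 to 88.9% and 51.3 to 76.3%. As the arms of a precursor are made together, the 3p and 5p values of miR-10a are not independent measurements. Both arms were known to be higher in CNV when the group was chosen, so the shares of both are descriptions.

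The balance between the arms of each hairpin was compared as well. The 3p share of all miR-10a counts was 0.810%, 0.775% and 0.591% in control replicates 1 to 3 and 0.941%, 1.25% and 1.28% in CNV replicates 1 to 3. The groups did not overlap, but counting error was wide, with exact intervals of 0.405 to 1.44% in control replicate 1 and 0.660 to 1.30% in CNV replicate 1. The mean 3p share was 0.725 ± 0.118% in control and 1.16 ± 0.187% in CNV (SD, n = 3). The 3p share of miR-10b was lower than that of miR-10a in every library and overlapped between the groups, at 0.345 to 0.364% in control and 0.291 to 0.440% in CNV. In both hairpins the 5p arm thus made up over 98% of the counts in each library.

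**Figure D2:**
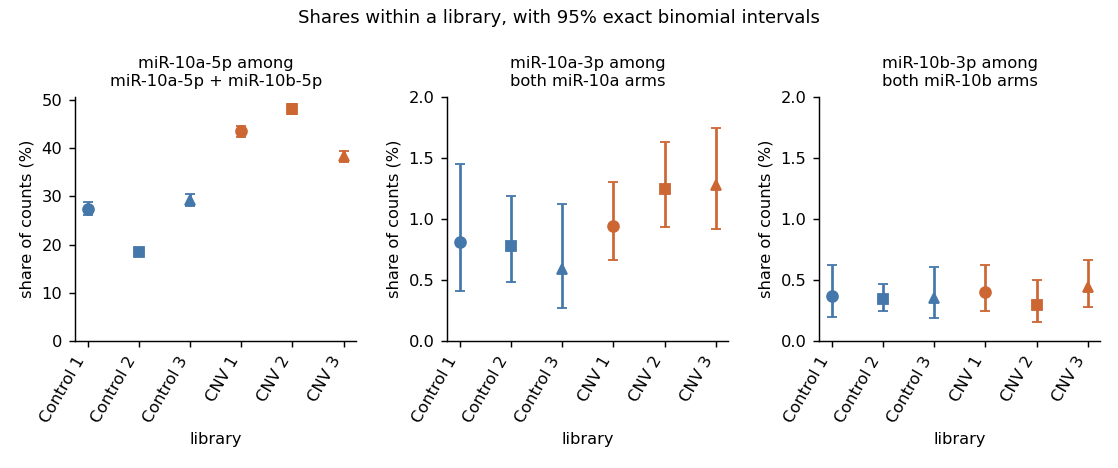
Share of counts in percent for each library, as points with exact 95% binomial intervals: miR-10a-5p among both guide arms of miR-10, and the 3p share of each hairpin. For the guide arms the 3 CNV libraries, at 38.3 to 48.1%, lie above the 3 controls, at 18.5 to 29.3%, and the 3p share of miR-10b stays between 0.291 and 0.440%.

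Summed over the shared ACCCUGU seed, miR-10a-5p and miR-10b-5p together stood at 846, 1044 and 1056 CPM in control replicates 1 to 3. In CNV replicates 1 to 3 they stood at 1698, 1708 and 1386 CPM. The sum was higher in every CNV library, at 982 ± 118 and 1597 ± 183 CPM (SD, n = 3), a 1.63-fold difference in means. Of the 615 CPM between the means, miR-10a-5p made up 451 and miR-10b-5p 164.

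The miR-196 arms were near the limit of detection. The count of miR-196b-5p was 15, 5 and 14 in control replicates 1 to 3 and 8, 3 and 13 in CNV replicates 1 to 3. In CPM this was 2.59, 0.359 and 2.86 against 1.56, 0.597 and 2.24, and the groups overlapped fully (log2 -0.13, SE 0.78). The arm miR-196a-5p, under the filter and not tested, had 4, 2 and 10 counts in control replicates 1 to 3 and 8, 2 and 18 in CNV replicates 1 to 3. Its levels of 0.690, 0.144 and 2.04 CPM in control and 1.56, 0.398 and 3.10 CPM in CNV overlapped too. Replicate 2 was lowest in both groups for both arms, and control replicate 2 was the library with the most counts in total.

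Summed over the libraries of a group, miR-196a-5p had 16 counts in control and 28 in CNV. With exact 95% Poisson intervals, for counting error only, these gave 0.650 CPM (0.372 to 1.06) and 1.75 CPM (1.16 to 2.53). That sum weights the deep control replicate 2 most, and CNV replicate 3 alone gave 18 of the 28 counts. For miR-196b-5p the sums were 34 and 24 counts, with intervals of 0.957 to 1.93 CPM and 0.962 to 2.23 CPM that overlapped. Compared within libraries, miR-196a-5p made up 21.1% to 58.1% of the miR-196 guide counts, and the exact interval held 50% in every library but control replicate 1 (6.05 to 45.6%).

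The miR-196 opposite arms were rarer still. The arm miR-196a-2-3p had 0 to 4 counts per library and miR-196a-1-3p 0 to 4. The arm miR-196b-3p had 1 count in CNV replicate 1 and 0 in the other 5 libraries. Over the 3 control libraries a count of 0 allows a level of up to 0.122 CPM, taken as 3 counts. For these 3 arms no difference was detectable at this depth. Another miRNA of the Hox clusters, miR-615, had 0 to 1 counts of its 3p arm in the controls and 2 to 3 in the CNV libraries. The groups did not overlap, but no count was over the 3 taken as the floor, so nothing is read from them. The 5p arm of miR-615 had 0 to 2 counts per control library and 0 in CNV. Neither arm passed the filter.

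By mean level over the 6 libraries the order was miR-10b-5p at 819 CPM, miR-10a-5p at 471, miR-10a-3p at 4.91, miR-10b-3p at 3.02, miR-196b-5p at 1.70 and miR-196a-5p at 1.32 CPM. The 3 opposite arms of miR-196 followed, each at a mean under 1 CPM. The order differed between the groups below the miR-10 guide arms. In control miR-10b-3p (2.61 CPM) and miR-196b-5p (1.94) were above miR-10a-3p (1.75) and miR-196a-5p was at 0.959, whereas in CNV miR-10a-3p (8.08) was above miR-10b-3p (3.42), and miR-196a-5p (1.68) was above miR-196b-5p (1.46). The mature sequences are 22 or 23 bases long, so the levels need no correction for length, though adapters join different small RNAs with different efficiency. Neighbours in this order overlapped in their range over the 6 libraries, with the exception of miR-10a-5p and miR-10a-3p. Over the same libraries the coefficient of variation was 14.9% for miR-10b-5p and 56.8% for miR-10a-5p.

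The relatives of miR-10 are miR-99a, miR-99b, miR-100, miR-125a and miR-125b, whose hairpins belong to the mir-10 superfamily but lie outside the Hox clusters. The guide arms of miR-99a and miR-100 are shown because they are the nearest of these to miR-10a-5p in sequence.
miR-99a-5p: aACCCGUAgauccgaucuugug
miR-100-5p: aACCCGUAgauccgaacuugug
The fewest single-base changes, insertions or deletions that turn miR-10a-5p into another sequence were 1 for miR-10b-5p, 3 for miR-100-5p and 4 for miR-99a-5p. All 5 relatives had higher group means than miR-10b-5p. They ranged from miR-125a-5p, at 2660 ± 281 CPM in control and 2220 ± 144 in CNV, to miR-99a-5p, at 74382 ± 19265 and 70588 ± 4482 CPM (SD, n = 3). Of the 5 guide arms tested, 0 were called by edgeR, DESeq2 or limma-voom, 0 had an unadjusted p under 0.05, and all 5 had a negative log2 fold change, from -0.08 for miR-99a-5p to -0.30 for miR-125b-5p. The others were at -0.21 for miR-100-5p, -0.26 for miR-125a-5p and -0.27 for miR-99b-5p. The CNV libraries lay below all controls for 2 of the 5, against 8.93% of all tested small RNAs and 11.3% of the tested miRNAs. Their median was -0.26, beside 0.01 for all tested miRNAs, and -0.40 beside -0.14 under total-count scaling. The difference between these values and those of miR-10a was not tested.

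**Figure D3:**
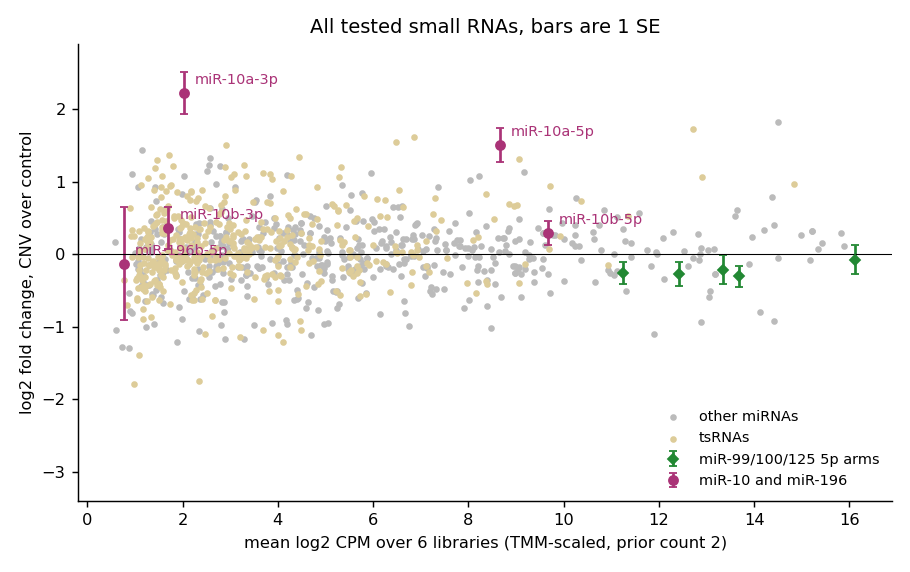
Log2 fold change of CNV over control against mean log2 CPM for all 997 tested small RNAs, with bars of 1 SE for the miR-10 and miR-196 arms and for the 5 guide arms of the relatives. The miR-10a arms stand at 1.51 and 2.23, the miR-10b arms at 0.29 and 0.37, and the relatives between -0.30 and -0.08.

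Patterns were compared by the mean absolute difference, over the 6 libraries, of log2 CPM centred on each miRNA's own mean. Among 374 miRNAs with a mean of at least 10 CPM, the nearest to miR-10a-5p were miR-146b-5p (0.20), miR-34b-5p (0.20), miR-34b-3p (0.25), miR-34c-5p (0.26) and miR-21a-5p (0.29). The first of these, miR-146b-5p, a miRNA induced by inflammatory signals, stood at 441, 311 and 424 CPM in control replicates 1 to 3 and 1008, 869 and 715 CPM in CNV replicates 1 to 3. The miR-34 arms, which p53 induces, had log2 fold changes of 1.12 (miR-34b-5p), 1.10 (miR-34b-3p) and 1.02 (miR-34c-5p). Of these neighbours miR-21a-5p alone passed the test (log2 1.82, SE 0.23). The nearest to miR-10b-5p were miR-99b-3p (0.05), let-7f-1-3p (0.06) and miR-532-5p (0.07). The nearest to miR-196b-5p were miR-129-2-3p (0.38), miR-384-3p (0.43) and miR-384-5p (0.44). To miR-196a-5p the nearest were miR-184-3p (0.67), miR-485-5p (0.69) and miR-323-3p (0.71). All of these were farther off than those named for the miR-10 guide arms. With 3 to 15 counts of miR-196b-5p and 2 to 18 of miR-196a-5p per library, counting error weighs on both patterns, and no likeness is read from them.

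Some miRNAs that mark other cells of the complex differed between the same libraries. In a bulk sample fewer cells of a type and less RNA per cell cannot be told apart. Photoreceptor miRNAs, led by miR-182-5p and miR-183-5p, summed to 49348 to 75779 CPM in control and 24736 to 49473 in CNV. Their 3 members had negative fold changes (median log2 -0.92). Neuron miRNAs, led by miR-9-5p and miR-124-3p, summed to 15211 to 21947 CPM in control and 8368 to 13552 in CNV, with 7 of 7 negative (median -0.97). Leukocyte miRNAs, of which miR-146a-5p was the most abundant in both groups, summed to 2843 to 3944 CPM in control and 3831 to 6219 in CNV. These sums overlapped, and 7 of 8 members were positive (median 0.44). The negative member was miR-150-5p (log2 -0.48), with all CNV libraries below all controls. Fibroblast and mural miRNAs summed to 94145 to 107192 CPM in control and 111032 to 134294 in CNV, with 6 of 7 positive (median 0.32). The RPE miRNAs had 4 of 4 negative (median -0.44). In the endothelial and angiogenic list 4 of 10 were positive (median -0.07). Its sum was 53504 to 63875 CPM in control and 52720 to 63205 in CNV. The groups also overlapped in the sums of the cartilage, erythrocyte, skeletal muscle and surface epithelium lists (medians 0.21, 0.38, 0.12 and 0.20). In these lists 3 of 4, 4 of 4, 4 of 5 and 6 of 7 tested members were positive. Among all tested miRNAs 277 of 541 were positive. Of the 59 members tested in the 10 cell type lists edgeR called 0, with 22 at an unadjusted p under 0.05, where 17.8% of all 997 small RNAs were under it. DESeq2 called 8, 4 of them higher in CNV, beside 4.62% of all small RNAs it tested, and limma-voom called 0. Their part in the difference of miR-10a was not tested.

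**Figure D4:**
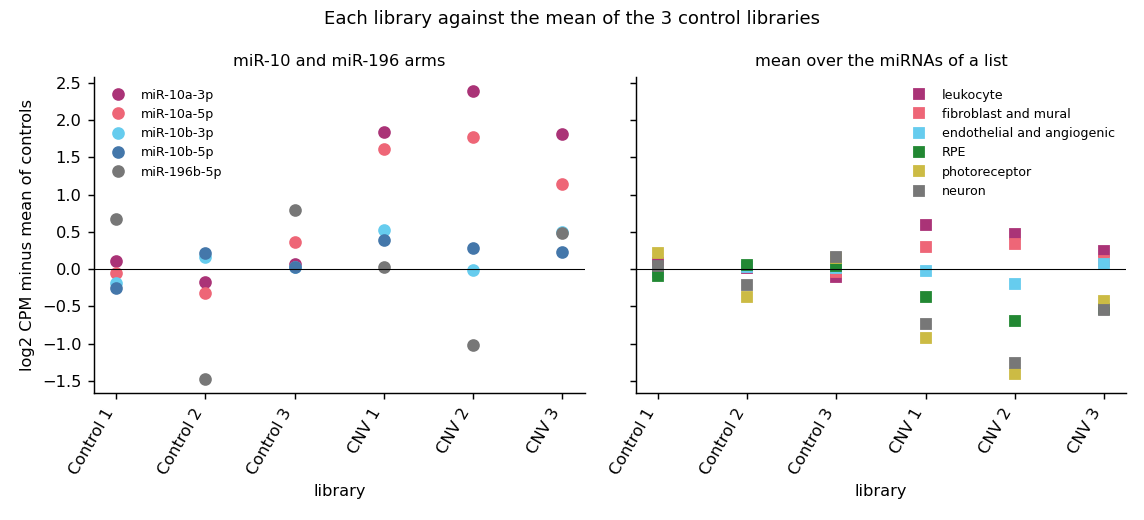
Log2 CPM of each library minus the mean of the 3 control libraries, for the 5 tested miR-10 and miR-196 arms on the left and for the mean over 6 cell type lists on the right. The miR-10a arms lie 1.14 to 2.39 above the control mean in the CNV libraries, the leukocyte list at 0.25 to 0.60 and the neuron list at -1.26 to -0.54 relative to it.

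The guide arms were also set against each list within a library, which is free of library scaling. For every 1000 counts of the leukocyte list there were 58.9, 67.9 and 87.5 of miR-10a-5p in control replicates 1 to 3. In CNV replicates 1 to 3 there were 119, 165 and 138, all above the controls. Most counts of the leukocyte list were of miR-146a-5p, at a mean of 2547 CPM in control and 3781 in CNV. Against the fibroblast and mural list (miR-143-3p, miR-199a-3p and others) the counts were 2.30, 2.05 and 2.89 in control and 5.51, 6.11 and 4.78 in CNV. Against the endothelial and angiogenic list (miR-126a-3p, miR-24-3p and others) they were 4.34, 3.12 and 4.84 in control and 14.0, 15.6 and 8.39 in CNV. Over the 10 lists the ratio of group means for miR-10a-5p ran from 1.97 to 5.85. The largest were 5.85, 5.08 and 3.66, against the photoreceptor, neuron and RPE lists, whose own members all had negative fold changes. The CNV libraries lay above the controls for 8 of 10, and overlapped them for the erythrocyte and surface epithelium lists. For miR-10b-5p the ratio of means ran from 0.835 to 2.29, and the groups were apart for 3 of 10, the RPE, photoreceptor and neuron lists. Against the fibroblast and mural list miR-10b-5p stood at 7.36 ± 1.52 and 7.16 ± 0.549 counts per 1000 (SD, n = 3).

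The calls of miR-10a depended on single libraries. That of miR-10a-5p was lost without any single control library and without CNV replicate 1 or 2, with log2 fold changes of 1.26 to 1.66 over the 6 fits that leave out a library. That of miR-10a-3p was lost without control replicate 2 or 3 or CNV replicate 1 or 2, with log2 fold changes of 1.97 to 2.32. Without any one of those libraries edgeR called 0 of all tested small RNAs, so that loss was not particular to miR-10a. Without control replicate 1 it called 4 small RNAs, miR-10a-3p among them.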

How the data were processed

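Small RNA libraries from 3 control and 3 CNV pools were analysed, grouped and numbered by their titles. The values used are the counts of reads per mature miRNA and per tsRNA that the authors deposited in 1 table per library. The submitters' processing notes name Bowtie. Not stated in the labels or files are its version, the reference build, the mismatches tolerated and the treatment of reads that match several miRNAs. The CPM that the authors deposited beside the counts were left aside.

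Counts were analysed with edgeR 4.0.16 in R 4.3.3: filterByExpr (minimum count 10, minimum total 15), TMM factors over miRNAs and tsRNAs together, the quasi-likelihood test without covariates, and Benjamini-Hochberg adjustment over all 997 tested, with a threshold of 0.05. A prior count of 2 was added for log2 CPM. The fit was tested on simulated data. Alternatives used DESeq2 1.42.0 and limma 3.58.1. The members and lists were chosen with earlier results of these data known, and the cell type and relatives lists are described by levels, counts of members and medians, with no test of a list. Non-members named are the relatives of miR-10, miR-615, the nearest patterns (5 for miR-10a-5p, 3 for each other guide arm) and abundant members of the lists mentioned. For miR-196a-5p, under the filter, the pattern was computed from its raw counts with the same prior.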

Additional observations from a re-analysis of the deposited data

How the results depend on the processing

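With a minimum mean of 20 CPM, edgeR called 0 small RNAs (103 at an unadjusted p under 0.05). It called 88 with no filter, 6 with miRNAs only, 36 with the replicate block and 0 to 24 with a library left out. It called 0 without control replicate 2 or 3 or CNV replicate 1 or 2 (118, 118, 117 and 82 at an unadjusted p under 0.05). DESeq2 called 38 and limma-voom 3. Of the miR-10 and miR-196 members, 1 was called with relative log expression factors and 1 without the photoreceptor and neuron list miRNAs, an alternative chosen after seeing the data, in each case miR-10a-3p. The count was 0 with a minimum mean of 20 CPM, where miR-10a-3p was filtered out, and 0 to 2 with a library left out. It was 2 under the other settings, DESeq2, limma-voom and the replicate block included. The log2 fold change stayed positive for miR-10a-5p in 16 of 16 alternatives, for miR-10a-3p in 15 of 15, for miR-10b-5p in 16 of 16 and for miR-10b-3p in 15 of 15. That of miR-196b-5p ran from -0.95 without control replicate 2 to 0.40 with limma-voom, on 3 to 15 counts per library. Libraries with the same number deviated together with correlations of 0.29, 0.03 and 0.17, and 2 of the 3 numbers correlated best with their own partner. Whether the numbers pair the samples is not settled by this, and the main fit did not use them as pairs. The replicate block called 9 of the 59 cell type list members, 2 higher and 7 lower in CNV, where the fit without it called 0. Over all 997 small RNAs the block called 36, with 19 higher and 17 lower in CNV. Why the calls changed was not tested.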
